A study of Rattus norvegicus with 35 samples.

Results

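Acute phase proteins are made by the liver and released into blood, and their levels change during inflammation or injury. The 10 genes described here, measured in cultured hepatocytes taken directly from rat liver, are Hp, Crp, A2m, Orm1, Lcn2, Lbp, Itih4, Serpina3n, Serpina3c and Serpina3l. They are 10 of the 14217 genes that a probe set of the array names alone. Each is read by 1 probe set out of 31042 that are not controls, and all 10 were among the 17971 bright enough to be tested. The genes were selected on measured values of these data, seen across the groups and within the Rs codes of the arrays, and which contrast decided is not recorded. The counts and p values below therefore describe these genes and are no independent support.

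The cultures were exposed through the medium for 72 h. The 12 groups were propiconazole, myclobutanil and triadimefon, which are triazole fungicides, each at 10, 30 and 100 uM, phenobarbital at 200 uM, PCN at 30 uM, and the vehicle DMSO at 0.1%. There were 3 arrays per group, coded Rs256, Rs293 and Rs304, except for PCN with 2, which lacked Rs256. The labels give neither the meaning of the code nor the sex, strain or age of the animals, and the replicates are called biological.

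In the acute phase response, interleukin 6 acts on hepatocytes through the receptor subunit gp130, the kinase Jak1 and the factor Stat3, and interleukin 1 acts through NF-kB, often together with C/EBP factors. Genes that these signals raise are called positive acute phase genes, and genes that fall, such as Alb and Ttr, are called negative ones. In the rat A2m and Orm1 are among the strongest positive members, whereas Crp is abundant in rat blood without inflammation. The Serpina3 genes encode serpins, which are inhibitors of serine proteases, and rodents carry a cluster of them where human has few.

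The deposited values were log-like scores with an unstated base, so all levels and changes are in units of that scale after quantile normalization, which gives every array the same set of values. Array medians lay between -0.03 and 0.02 before that step, and array SDs between 0.645 and 0.937, with the widest array that of propiconazole 30 uM, Rs293 (the next was 0.751). Of 17 hepatocyte markers on the array 16 or 17 lay above the array median in every group, whereas all 8 neutrophil markers lay below it on all 35 arrays. By brightness Orm1 ranked between 3 and 6 on every array, with 4 distinct normalized values, and Hp between 6 and 39, with 18. Normalization holds such bright probe sets nearly in place, so for Hp and Orm1 values as deposited are given beside the normalized ones.

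Promoters in RefSeq, build GRCr8, were at hand for 6 of the 10 members. Those of Serpina3l and Serpina3n are shown because these genes are direct neighbours on chromosome 6, with 0 genes between them, yet had unlike values, and that of Lcn2 because its change against DMSO at 100 uM was the largest outside Serpina3c and Serpina3l. Only the bases before the annotated gene are printed, 5′ to 3′ on the gene's strand. The Serpina3l stretch lies at chr6:129062956-129063144 (plus strand, 189 bases), the Serpina3n stretch at chr6:129088142-129088391 (plus strand, 250 bases) and the Lcn2 stretch at chr3:36081852-36082030 (minus strand, 179 bases). Capitals mark a match to TTCNNNGAA, the palindrome that STAT factors bind, in the Serpina3 stretches, and a match to CTGGGAA, known as the acute phase response element, in Lcn2.
Serpina3l: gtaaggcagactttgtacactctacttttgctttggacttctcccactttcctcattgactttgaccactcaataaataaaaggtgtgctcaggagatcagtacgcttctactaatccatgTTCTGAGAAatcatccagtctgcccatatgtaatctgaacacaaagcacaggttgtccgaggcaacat
Serpina3n: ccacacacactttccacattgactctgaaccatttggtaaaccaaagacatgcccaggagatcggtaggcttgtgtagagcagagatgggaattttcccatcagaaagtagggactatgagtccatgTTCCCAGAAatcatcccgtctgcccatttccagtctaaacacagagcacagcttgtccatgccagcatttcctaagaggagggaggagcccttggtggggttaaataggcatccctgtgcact
Lcn2: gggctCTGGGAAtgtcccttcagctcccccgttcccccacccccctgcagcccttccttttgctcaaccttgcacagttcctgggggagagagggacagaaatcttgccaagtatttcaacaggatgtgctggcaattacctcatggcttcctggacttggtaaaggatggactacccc

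The Serpina3l and Serpina3n stretches were identical at 117 of 152 aligned bases (77%), and both carried the STAT palindrome. The motifs were chosen after these sequences had been seen, and both strands were searched in the whole windows of 300 bases. TTCNNNGAA reads the same on both strands and was found in 3 members, Itih4, Serpina3n and Serpina3l, and in 8.87% of 33469 windows of that length. CTGGGAA was found in Lcn2, Itih4 and Serpina3n (11.3% of all windows), and in Itih4 and Serpina3n it overlaps the palindrome. The looser patterns of NF-kB, GGG and CC with 5 bases of any kind between, and of C/EBP, TTNNGNAA, each matched in all 6 members, but also in 47.3% and 41.3% of all windows. A match describes letters and not a bound site.

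The largest changes of members against DMSO were those of Serpina3c and Serpina3l, which rose with propiconazole at 100 uM, by 1.18 and 1.0 units. Hp, which binds free haemoglobin, fell by 0.24 units. These 3 members were the only ones called at that dose by limma at an adjusted p below 0.05, when 11.3% of all tested probe sets were called (5.78% higher and 5.53% lower). Myclobutanil at 100 uM raised Crp by 0.34, the only member called among 0.785% of all probe sets, and for triadimefon at 100 uM Hp fell by 0.17, the only member called among 1.55% (0.863% lower). The median change of the 10 members was 0.08, 0.16 and 0.11 for propiconazole, myclobutanil and triadimefon at 100 uM, against 0.00, 0.01 and 0.00 over all tested probe sets. In size without sign these medians were 0.24, 0.21 and 0.15 for the members and 0.07, 0.05 and 0.05 for all. Over 16 alternative settings the propiconazole calls of Serpina3c, Hp and Serpina3l held in 13, 12 and 5, whereas the Crp call with myclobutanil and the Hp call with triadimefon held in 2 each and in none that left out an array.

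Arrays of the same Rs code deviated together, so a fit with the code as a replicate block stands beside the main one. With the block 5 members were called for propiconazole at 100 uM, with Lcn2 added to the rises and Serpina3n to the falls (27.1% of all probe sets). For myclobutanil the block added Serpina3c and Hp to Crp (7.97% of all), and for triadimefon it added Lcn2, Serpina3c and Serpina3l to Hp (9.96% of all). On the values as deposited the only member called in these 3 comparisons was Serpina3c with propiconazole (5.36% of all probe sets called, against 0.0779% and 0.2% for myclobutanil and triadimefon), and the block added Serpina3l with propiconazole and Serpina3c with triadimefon (15% and 2.87% of all).

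**Figure D1:**
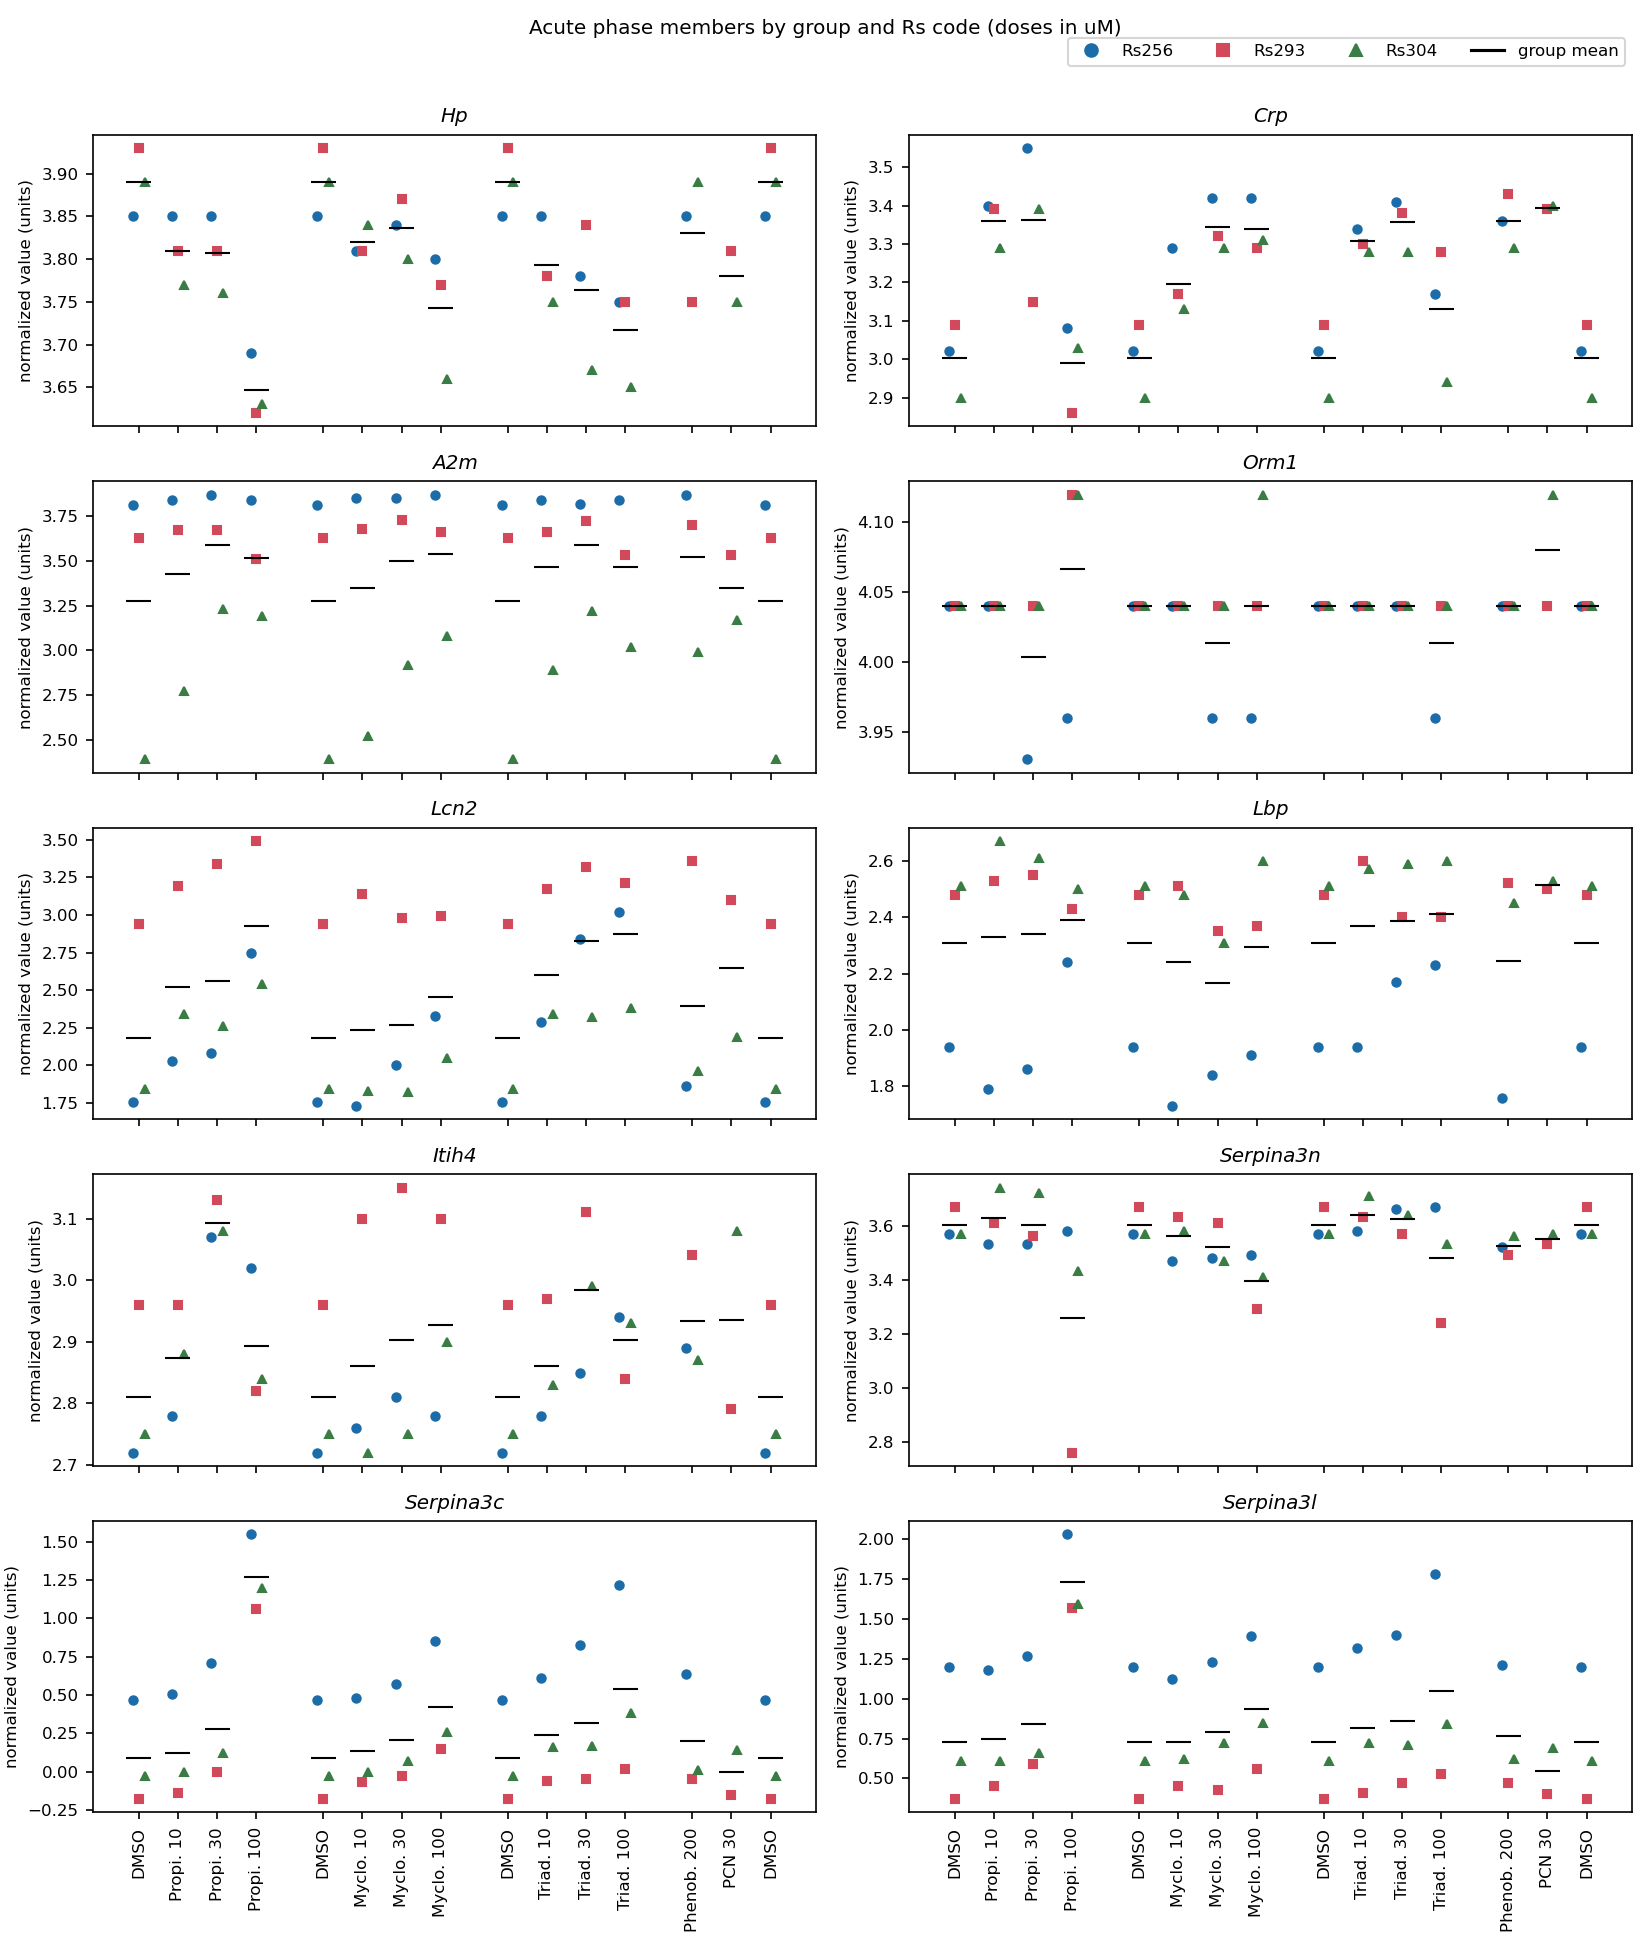
Normalized value (units of the deposited scale) of each member on every array, by group with doses in uM; symbols are the Rs codes, black lines the group means, and the DMSO arrays are repeated beside each series. Serpina3c and Serpina3l stand highest at propiconazole 100 uM in every code and are layered by code too, with Rs256 on top in every group that has it. A2m, Lcn2 and Lbp are also layered by code in nearly every group.

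Serpina3c, for which RefSeq lists kallikrein-binding protein among its older names, was dim in DMSO cultures. Its normalized values with propiconazole at 100 uM were 1.55, 1.06 and 1.20 in Rs256, Rs293 and Rs304, against 0.47, -0.18 and -0.03 with DMSO. All 3 propiconazole arrays lay above all 3 DMSO arrays, as for Serpina3l, whereas Hp lay wholly below (26.5% of all tested probe sets did not overlap in either direction). The Serpina3c change was 1.18 (SE 0.294, n = 3 and 3, limma adjusted p = 0.00824). Within the codes the changes were 1.08, 1.24 and 1.23, so the rise differed less between codes than the starting level did. With the block the SE was 0.0772 and the 95% interval ran between 1.02 and 1.34 (adjusted p = 9.15e-11). As deposited the change was 1.16 (adjusted p = 0.0208).

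In the propiconazole series of Serpina3c the mean was 0.09 with DMSO, 0.13 at 10 uM, 0.28 at 30 uM and 1.27 at 100 uM (SD 0.341, 0.343, 0.378 and 0.251). At 30 uM the changes within codes were 0.23, 0.18 and 0.16, and with the block the 95% interval was 0.03 to 0.35 (adjusted p = 0.24, not called). Myclobutanil at 100 uM gave 0.85, 0.15 and 0.26 in the same order of codes, a change of 0.33 (SE 0.294, adjusted p = 0.816), and triadimefon at 100 uM gave 1.22, 0.02 and 0.38, a change of 0.46 (SE 0.294, adjusted p = 0.617). Neither group parted from DMSO when arrays were pooled over codes. Within codes every change was positive, 0.38, 0.32 and 0.29 for myclobutanil and 0.75, 0.20 and 0.42 for triadimefon, and both were called with the block (adjusted p = 0.00804 and 0.000396). The triadimefon change in Rs256 was more than 3 times that in Rs293. Phenobarbital and PCN gave changes of 0.11 and 0.12 with the block, neither called, and the unblocked PCN value of -0.09 sets arrays of Rs293 and Rs304 against DMSO arrays of all 3 codes.

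Serpina3l, a serpin gene of the same cluster, followed Serpina3c closely. With propiconazole at 100 uM its values were 2.03, 1.57 and 1.59 in Rs256, Rs293 and Rs304, against 1.20, 0.37 and 0.61 with DMSO. The groups did not overlap, and the change was 1.0 (SE 0.328, n = 3 and 3, adjusted p = 0.0473, and adjusted p = 1.62e-09 with the block). On the values as deposited the change was 0.96 and was not called (adjusted p = 0.112) unless the block was added (adjusted p = 3.59e-06). At 10 and 30 uM propiconazole changed it by 0.02 and 0.11. Triadimefon at 100 uM changed it by 0.32, with 0.59, 0.15 and 0.23 in the codes, and was called with the block (adjusted p = 0.00897), while myclobutanil changed it by 0.21 (adjusted p = 0.119 with the block). Probe sets of close relatives can bind each other's RNA, and how far the Serpina3c and Serpina3l signals are separate was not tested.

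**Figure D2:**
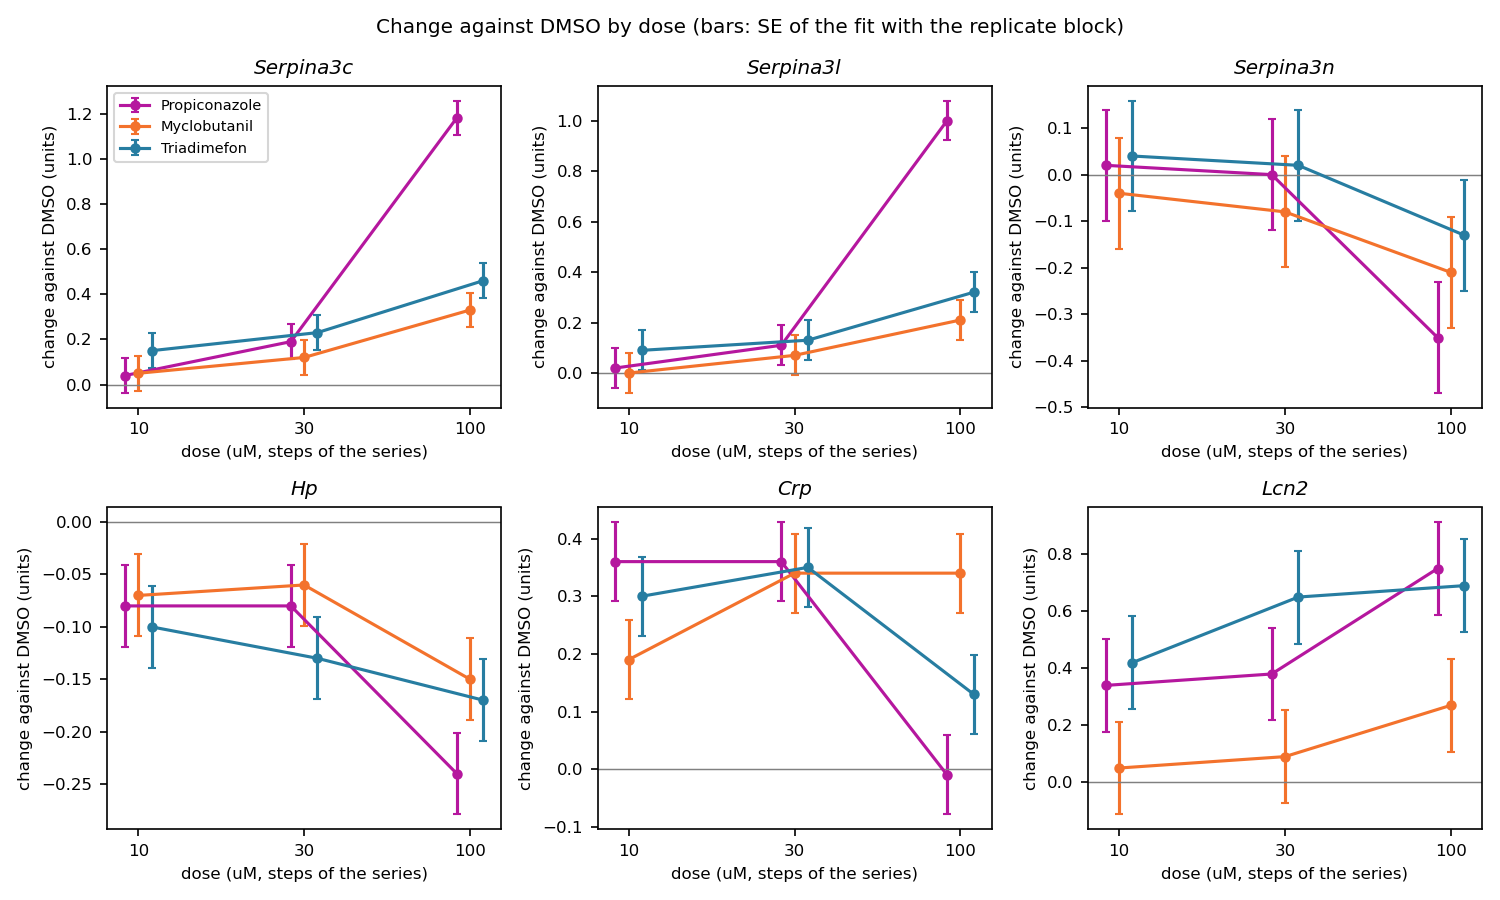
Change against DMSO (normalized units) at 10, 30 and 100 uM, spaced evenly, of the propiconazole, myclobutanil and triadimefon groups for 6 members; bars are SEs of the fit with the replicate block. Serpina3c and Serpina3l rise steeply between 30 and 100 uM of propiconazole, and Crp is above DMSO at the lower doses but near 0 at 100 uM of propiconazole.

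Serpina3n, whose mouse counterpart inhibits neutrophil elastase and granzyme B, was bright in all groups and did not follow Serpina3c and Serpina3l. With propiconazole at 100 uM its values were 3.58, 2.76 and 3.43 in Rs256, Rs293 and Rs304, against 3.57, 3.67 and 3.57 with DMSO. The groups overlapped, and the Rs293 array alone lay far below: the changes in the codes were 0.01, -0.92 and -0.14. The pooled change of -0.35 (SE 0.126) was not called (adjusted p = 0.0757), and it was called with the block (adjusted p = 0.0298). As deposited the change was -0.33 (adjusted p = 0.782, and adjusted p = 0.66 with the block). Rs293 was also the lowest code with myclobutanil (3.49, 3.29 and 3.41) and triadimefon (3.67, 3.24 and 3.53) at 100 uM. The changes over the codes were -0.21 and -0.13, neither called. All myclobutanil values lay below those with DMSO, as did the phenobarbital values, 3.52, 3.49 and 3.56. In these comparisons 12.7% and 3.72% of all tested probe sets did not overlap, and both share the same DMSO arrays. As deposited both groups overlapped DMSO.

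A2m, a broad protease inhibitor and in the rat a strongly induced acute phase protein, varied with the Rs code far more than with treatment. With propiconazole at 100 uM it stood at 3.84, 3.51 and 3.19 in Rs256, Rs293 and Rs304, against 3.81, 3.63 and 2.39 with DMSO. Rs304 was low with DMSO, the lowest of all 35 arrays, and changes against that array ran between 0.13 and 0.84 units in its 11 treated cultures, against -0.12 to 0.10 in Rs293 and 0.02 to 0.06 in Rs256. All 11 changes in Rs304 rest on this 1 DMSO array. The pooled changes at 100 uM were 0.24, 0.26 and 0.19 for propiconazole, myclobutanil and triadimefon (SE 0.386 each) and were not called, with or without the block. In Rs256 A2m ranked among the brightest probe sets, where normalization leaves little room for change.

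Itih4, a heavy chain of the inter-alpha-inhibitor family that plasma kallikrein cleaves, stayed between 2.72 and 3.15 on all 35 arrays. Its largest change was 0.29 (SE 0.107, adjusted p = 0.677) with propiconazole at 30 uM, where the values were 3.07, 3.13 and 3.08 in Rs256, Rs293 and Rs304, against 2.72, 2.96 and 2.75 with DMSO. Those groups did not overlap, as for Crp and for 9.24% of all tested probe sets in that comparison. At 100 uM its changes were 0.09, 0.12 and 0.10 for propiconazole, myclobutanil and triadimefon. No Itih4 change against DMSO was called, with or without the block.

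Hp, the haemoglobin scavenger haptoglobin, had a lower mean than DMSO in 11 of the 11 treated groups on the normalized scale and in 3 of 11 as deposited (in 1 of these the change rounds to 0.00). The 11 comparisons share the same 3 DMSO arrays and are not separate observations. Its values with propiconazole at 100 uM were 3.69, 3.62 and 3.63 in Rs256, Rs293 and Rs304, against 3.85, 3.93 and 3.89 with DMSO, without overlap, and the change was -0.24 (SE 0.0442, adjusted p = 0.000652). At 10 and 30 uM of propiconazole the normalized changes were -0.08 and -0.08, and the deposited ones, 0.13 and 0.63, had the opposite sign. Myclobutanil and triadimefon at 100 uM gave -0.15 (adjusted p = 0.148, and adjusted p = 0.0201 with the block) and -0.17 (adjusted p = 0.0465). The normalized range of Hp was narrow, and the deposited values did not follow it throughout. As deposited, propiconazole at 100 uM gave 3.33, 3.15 and 3.91 against 3.85, 3.62 and 3.72 with DMSO, a change of -0.27 (adjusted p = 0.865) with overlapping groups. For myclobutanil and triadimefon the deposited changes were 0.04 and 0.03, so the direction seen for both after normalization did not appear there.

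**Figure D3:**
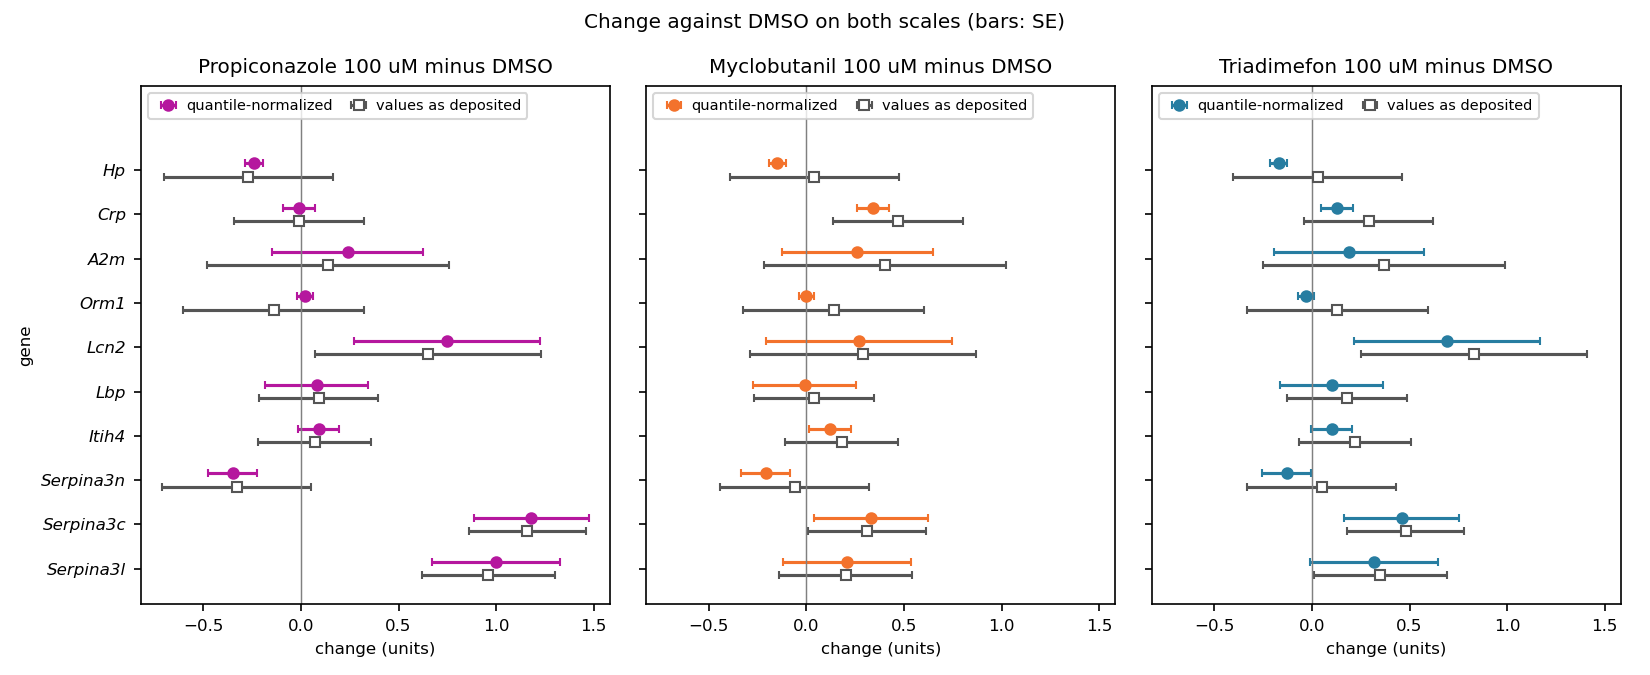
Change against DMSO at 100 uM of each triazole for the 10 members, on the quantile-normalized scale (filled circles) and on the values as deposited (open squares), with SEs of the fits without the block. Serpina3c, Serpina3l, Lcn2, A2m and Itih4 lie above 0 on both scales for all 3 triazoles. Crp, which is near 0 with propiconazole, also keeps its side. Hp falls on the normalized scale with myclobutanil and triadimefon and lies near 0 as deposited.

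Orm1, the drug-binding alpha-1-acid glycoprotein, ranked so high on every array that its normalized values could move little. They were 3.96, 4.12 and 4.12 with propiconazole at 100 uM, against 4.04, 4.04 and 4.04 with DMSO. The deposited values were 3.57, 3.40 and 4.29 with propiconazole at 100 uM, against 4.03, 3.76 and 3.89 with DMSO. The change was -0.14, with lower values in Rs256 and Rs293 and a higher one in Rs304. The deposited changes with myclobutanil and triadimefon at 100 uM were 0.14 and 0.13, none called. Among the 457 brightest probe sets, with means above 2.5, the median deposited change was -0.01, 0.12 and 0.15 in these 3 comparisons and 0.46 with propiconazole at 30 uM, where the Rs293 array was the widest of all.

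Lcn2, which withholds iron from bacteria by binding their siderophores, had a larger change with propiconazole than any member but Serpina3c and Serpina3l. With propiconazole at 100 uM its values were 2.75, 3.49 and 2.54 in Rs256, Rs293 and Rs304, against 1.76, 2.94 and 1.84 with DMSO. Pooled over codes the groups overlapped, because Rs293 stood high in both, but within every code propiconazole was higher, by 0.99, 0.54 and 0.71. The change was 0.75 (SE 0.476, adjusted p = 0.381), and with the block it was called (SE 0.163, adjusted p = 0.00112, 95% interval 0.41 to 1.08). Triadimefon gave 3.02, 3.21 and 2.38 at 100 uM, a change of 0.69 that was called with the block (adjusted p = 0.00695), and its changes at 10 and 30 uM were 0.42 and 0.65. Its 3 doses were higher than DMSO in every code, most of all in Rs256. Myclobutanil gave the smallest series, with 0.05, 0.09 and 0.27 at 10, 30 and 100 uM. As deposited the propiconazole and triadimefon changes at 100 uM were 0.65 and 0.83, and neither was called with the block (adjusted p = 0.256 and 0.266). Neutrophils also express Lcn2, and the 8 neutrophil markers on the array, among 13 listed, summed to between -2.19 and -2.03 with propiconazole at 100 uM and between -2.32 and -2.19 with DMSO, all below the array median.

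Crp, C-reactive protein, which binds phosphocholine on microbes and damaged cells, stood higher than DMSO at the lower doses of each triazole. Its values with DMSO were 3.02, 3.09 and 2.90 in Rs256, Rs293 and Rs304. Propiconazole gave changes of 0.36, 0.36 and -0.01 at 10, 30 and 100 uM, and triadimefon gave 0.30, 0.35 and 0.13. Both series thus came back toward DMSO at the top dose, whereas myclobutanil gave 0.19, 0.34 and 0.34. At 100 uM of myclobutanil the values were 3.42, 3.29 and 3.31, all above DMSO (SE 0.0815, adjusted p = 0.0463, and adjusted p = 0.00285 with the block). As deposited that change was 0.47 and was not called (adjusted p = 1, and adjusted p = 0.573 with the block).

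Phenobarbital and PCN, the positive controls of the study, also had higher Crp than DMSO, with changes of 0.36 and 0.39 on the normalized scale and 0.54 each as deposited. The phenobarbital values were 3.36, 3.43 and 3.29, and the PCN values 3.39 and 3.40 in Rs293 and Rs304. Crp did not overlap with DMSO in 9 of the 11 comparisons, the exceptions being propiconazole and triadimefon at 100 uM. In those 9 comparisons between 3.49% and 21% of all tested probe sets did not overlap, and all 9 share the same 3 DMSO arrays, in which Crp was low, so they are not separate observations.

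Over the 8 comparisons other than 100 uM of a triazole no member was called by limma, and 1 or 2 members in each had an unadjusted p under 0.05, as did between 0.267% and 5.65% of all probe sets. The share of all probe sets called there was 0.0278% for triadimefon at 30 uM (0.00556% lower), 0.0111% for propiconazole at 30 uM, 0.00556% each for propiconazole at 10 uM, myclobutanil at 30 uM, phenobarbital and PCN, and 0 for myclobutanil and triadimefon at 10 uM. With the block Crp was called for propiconazole at 30 uM (0.36, adjusted p = 0.00785), triadimefon at 30 uM (0.35, adjusted p = 0.0112) and PCN (0.42, adjusted p = 0.0477), where 1.82%, 0.874% and 0.0223% of all probe sets were called. No other member was.

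Lbp, which hands bacterial lipopolysaccharide to Cd14, had changes against DMSO between -0.14 and 0.10 over the 9 triazole groups, none called. Its values were 2.24, 2.43 and 2.5 with propiconazole at 100 uM in Rs256, Rs293 and Rs304, against 1.94, 2.48 and 2.51 with DMSO. Rs256 started lower and was the 1 code that stood higher with propiconazole. Changes at 100 uM were 0.08, -0.01 and 0.10 for propiconazole, myclobutanil and triadimefon. With the block their 95% intervals were -0.11 to 0.28, -0.21 to 0.18 and -0.10 to 0.30.

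Over the 3 doses of a triazole, the slope per 10-fold dose was called for 3 members, all with propiconazole (7.92% of all probe sets). Serpina3c rose by 1.16 per 10-fold dose (SE 0.294, adjusted p = 0.0136), Crp fell by 0.37 (SE 0.0815, adjusted p = 0.00434) and Hp fell by 0.16 (SE 0.0442, adjusted p = 0.0239). As deposited the Hp slope was -0.42 and was not called (adjusted p = 0.787). Serpina3l had a slope of 1.0 (adjusted p = 0.062) and Serpina3n one of -0.37 (adjusted p = 0.0702), and both were called with the block (adjusted p = 3.26e-09 and 0.0241). In the same fit (22.3%, 5.02% and 2.81% of all probe sets for propiconazole, myclobutanil and triadimefon) Serpina3c also had called slopes with myclobutanil (0.28) and triadimefon (0.31). Without the block no member was called for those 2 triazoles (limma, 0.206% and 0.0612% of all), where 0 and 1 members had an unadjusted p under 0.05, as did 8.64% and 7.52% of all.

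The 3 triazoles were also set against each other at matched doses, in 9 pairs of groups. At 10 and 30 uM no member and no other probe set was called with or without the block, and no member had an unadjusted p under 0.05 in limma. At 100 uM propiconazole had less Crp than myclobutanil, by 0.35 (SE 0.0815, adjusted p = 0.0435): 3.08, 2.86 and 3.03 against 3.42, 3.29 and 3.31 (0.562% of all probe sets called). Serpina3c was higher with propiconazole than with myclobutanil by 0.85 (SE 0.294, adjusted p = 0.267) and than with triadimefon by 0.73 (SE 0.294, adjusted p = 0.392, 0.495% of all called). Within codes the first difference was 0.70, 0.91 and 0.94 and the second 0.33, 1.04 and 0.82.

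With the block both Serpina3c differences were called (adjusted p = 2.36e-07 and 3.36e-06), as were those of Serpina3l, 0.80 and 0.68 (adjusted p = 9.8e-07 and 1.16e-05), when 5.85% and 5.22% of all probe sets were called. All 4 were also called with the block on the values as deposited (0.868% and 1.12% of all). No member was called between myclobutanil and triadimefon at 100 uM, with or without the block (limma, 0 and 0.0167% of all probe sets called), and Crp was the 1 member with an unadjusted p under 0.05 without the block (a difference of 0.21), as were 1.87% of all probe sets. In the fit with the block the Serpina3c difference, myclobutanil minus triadimefon, was -0.13 with a 95% interval of -0.28 to 0.03, and for Lcn2 it was -0.41 with an interval of -0.75 to -0.08 and an adjusted p of 0.749. Without the block the intervals were -0.73 to 0.48 and -1.39 to 0.57. These intervals are not adjusted for the number of comparisons.

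The Rs codes differed in A2m, Lcn2, Lbp, Serpina3c and Serpina3l, with a largest difference between codes of 0.90, 1.03, 0.59, 0.71 and 0.81 units in size. In a fit with treatment group and code together, 7 members differed between Rs256 and Rs304, 4 between Rs293 and Rs304 and 7 between Rs256 and Rs293, when 52.9%, 26.8% and 56.3% of all probe sets did. In all 9 members differed in at least 1 comparison, Serpina3n being the exception, as did 70.7% of all probe sets. As deposited 7 did, without Orm1 and Itih4 (60.3% of all). For Orm1 the sign turned too, with Rs256 minus Rs304 at -0.06 normalized and 0.51 as deposited and Rs256 minus Rs293 at -0.04 and 0.29. For Hp Rs256 minus Rs304 was 0.05 normalized and 0.53 as deposited (limma adjusted p = 0.0287 and 0.0397). Its deposited Rs293 minus Rs304 and Rs256 minus Rs293, 0.24 and 0.29, were not called. On the normalized scale A2m, Serpina3c and Serpina3l differed in all 3. The members' median difference in size was 0.10, 0.11 and 0.17, against 0.06, 0.04 and 0.07 over all probe sets.

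A2m was higher in Rs256 and Rs293 than in Rs304, by 0.90 (SE 0.0661, adjusted p = 3.07e-11) and 0.69 (SE 0.0639). It ranged between 3.81 and 3.87 over the 11 arrays of Rs256 (median 3.84), between 3.51 and 3.73 in Rs293 (median 3.67) and between 2.39 and 3.23 in Rs304 (median 3.00), so Rs304 did not overlap either of the others. Lcn2 was high in Rs293, by 1.03 over Rs304 (SE 0.0814), and Rs256 lay below Rs293 by 0.94 (SE 0.0842). Its Rs293 values ran between 2.94 and 3.49 (median 3.18), those of Rs256 between 1.73 and 3.02 (median 2.08) and those of Rs304 between 1.82 and 2.54 (median 2.22). Lbp was low in Rs256, by 0.59 against Rs304 and 0.52 against Rs293 (SE 0.0493 each), with values between 1.73 and 2.24 there. Each of the codes was thus the extreme one for a different acute phase gene.

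Serpina3c and Serpina3l were high in Rs256, by 0.55 and 0.60 over Rs304 and by 0.71 and 0.81 over Rs293. Rs293 lay below Rs304 for both, by 0.17 and 0.21. The same differences appeared on the values as deposited, where Serpina3c and Serpina3l gave 0.55 and 0.62 for Rs256 minus Rs304. Macrophage markers moved with the code as well: 16 of 18 were on the array, and their summed level ran between 2.21 and 3.09 in Rs256, between -0.73 and 0.75 in Rs293 and between -0.33 and 1.51 in Rs304. Of the 16, Cd14, Lyz2 and C1qb lay above the array median on all 35 arrays (means of 1.32, 1.26 and 0.25) and Cd68 and Aif1 on 32, Clec4f did so on 21 and Csf1r on 9, and the other 9, Cd163, Adgre1, C1qa, C1qc, Ptprc and Cd74 among them, lay above it on 0 arrays. Of 7 tested macrophage markers 1 was called higher with propiconazole at 100 uM, Cd68 (0.80, limma adjusted p = 0.00768), when 5.78% of all probe sets were. The list median there was -0.01. With the block 2 were called higher with propiconazole (13.7% of all), 0 with myclobutanil (3.76%) and 1 with triadimefon (4.71%). The macrophage sum ran between 0.75 and 2.61 with propiconazole at 100 uM and between -0.06 and 2.34 with DMSO. Stellate cell markers, all 14 on the array, summed lowest in Rs304, where A2m was low, with 1.27 to 2.24 against 2.60 to 3.23 in Rs256 and 2.62 to 4.75 in Rs293. Cholangiocyte markers, 7 of 10 on the array, summed to 1.48 to 2.99 in Rs293, where Lcn2 was high, against 1.33 to 2.26 in Rs256 and 1.01 to 1.67 in Rs304. The brightest stellate marker was Vim (mean of 2.58) and the brightest cholangiocyte marker Epcam (mean of 1.99). No other marker of these lists had a mean above 0.46. Endothelium markers, 10 of 12 on the array, summed to -1.81 to -0.72 in Rs256, -2.25 to -1.81 in Rs293 and -2.39 to -2.01 in Rs304, with at least 8 below the array median on all arrays of each code. The part of other cells in these differences was not tested, and in such bulk RNA more cells of a type and more RNA per cell cannot be told apart.

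**Figure D4:**
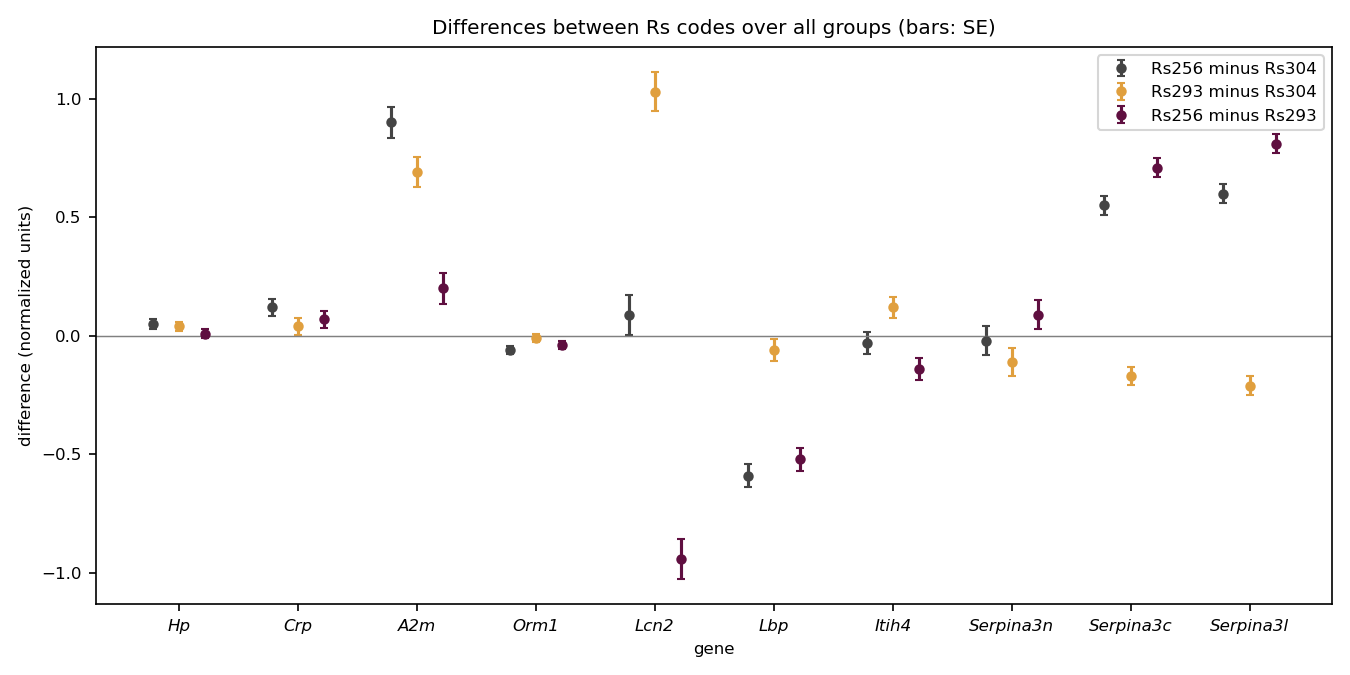
Difference between Rs codes (normalized units, with SEs) for each member, from a fit with the 12 treatment groups and the code. A2m is low in Rs304, Lcn2 high in Rs293, Lbp low in Rs256, and Serpina3c and Serpina3l high in Rs256. Serpina3n, at -0.02, -0.11 and 0.09, was called in no comparison. Hp and Orm1 have differences of at most 0.06 in size on this scale, with smaller SEs than Serpina3n. Their differences as deposited, not drawn here, reached 0.53 and 0.51.

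Over the 33 arrays other than PCN, the sum of squares of each member was split between group and code. The code held 86.2% for A2m, 82.2% for Lbp and 71% for Lcn2, against a median of 27.9% over all tested probe sets. Treatment group held 72.4% for Crp and 66.8% for Hp, against a median of 25.7%. Serpina3c and Serpina3l were marked by both, with 50.6% and 38.1% for group and 46.3% and 58.6% for code, and only 3.07% and 3.32% were left over. Serpina3n had 50.6% left over, and Orm1 50%, against a median of 38.1%. Groups outnumber codes and so take a larger share of mere scatter. Shares of group and of code are therefore each read against their own median. The split was made on normalized values only, also for Hp and Orm1.

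Of 24 tested genes listed here as other positive acute phase genes, none was called higher in limma for a triazole at 100 uM. Whether inflammation raises each of them in such cultures was not tested. With propiconazole 3 of the list were lower (5.53% of all probe sets). They were Vnn1, a pantetheinase (-1.22, SE 0.224), Pzp, an alpha-macroglobulin related to A2m (-0.72, SE 0.163), and Hpx, haemopexin, which binds haem (-0.26, SE 0.056). With the block 2 rose and 10 fell for propiconazole, 1 rose and 5 fell for myclobutanil, and 0 rose and 5 fell for triadimefon. Of all probe sets 13.7% rose and 13.4% fell in the first of these fits, 3.76% and 4.22% in the second and 4.71% and 5.25% in the third. The list median was -0.17, -0.12 and -0.09 for propiconazole, myclobutanil and triadimefon. On the values as deposited 1 gene of the list was called with propiconazole and none with the others.

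Negative acute phase genes, which fall during inflammation, had 8 of 17 tested members lower with propiconazole at 100 uM, 0 with myclobutanil and 4 with triadimefon, and none higher, when 5.53%, 0.412% and 0.863% of all probe sets were lower. With propiconazole the largest were Igf1, insulin-like growth factor 1 (-0.67, SE 0.117), the clotting factor F12 (-0.66, SE 0.117), Fetub (-0.41) and the retinol carrier Rbp4 (-0.39). With triadimefon they were Apoh (-0.28), the vitamin D carrier Gc (-0.27), Ahsg (-0.25) and Ambp (-0.18). The list median was -0.24 and -0.18 in these 2 comparisons, against 0.00 over all probe sets. Hepatocyte markers, which share Ttr, Ahsg and others with this list, had 5 of 17 lower with propiconazole at 100 uM, 1 with myclobutanil and 2 with triadimefon. Their summed level ran between 43.48 and 44.49 with propiconazole and between 47.44 and 48.94 with DMSO. With myclobutanil and triadimefon at 100 uM it ran between 45.23 and 47.07 and between 45.04 and 46.48. No gene of the negative list was called on the values as deposited. Of all probe sets 5.36%, 0.0779% and 0.2% were, for propiconazole, myclobutanil and triadimefon at 100 uM. The deposited propiconazole changes of Igf1, F12, Fetub and Rbp4 were -0.63, -0.61, -0.40 and -0.40. For triadimefon those of Apoh, Gc, Ahsg and Ambp were -0.11, -0.09, -0.06 and -0.01. With the block 2 rose and 10 fell with propiconazole, 2 rose and 7 fell with myclobutanil, and 3 rose and 9 fell with triadimefon, against the blocked shares of all probe sets given above.

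Among 37 tested genes that carry cytokine signals to acute phase genes, 3 rose with propiconazole at 100 uM, when 5.78% of all probe sets were higher. They were Stat5b, the factor that growth hormone activates (0.39, SE 0.0511, limma adjusted p = 1.32e-05), the kinase Jak2 (0.31, SE 0.0665, adjusted p = 0.00278) and Irak1, a kinase of interleukin 1 signalling (0.15, SE 0.0487). Stat5b and Jak2 were also called on the values as deposited. Irak1 was the only one called with myclobutanil (0.24), and none was with triadimefon. The list medians were 0.00, 0.02 and 0.04 for propiconazole, myclobutanil and triadimefon. With the block 9 rose and 4 fell for propiconazole (13.7% and 13.4% of all), 2 and 0 for myclobutanil and 1 and 2 for triadimefon.

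For the 4 members called against DMSO, the gene outside the list with the most similar group means was found by Pearson's r over the 12 groups, of which PCN lacked Rs256, so that its means stand lower for genes high in that code. Serpina3c was most like Sdcbp2, a syntenin (r = 0.996), which changed by 1.07, 0.25 and 0.48 with propiconazole, myclobutanil and triadimefon at 100 uM. Serpina3l was most like Tiparp, an ADP-ribosyltransferase (r = 0.992, changes of 0.40, 0.05 and 0.12). Crp was most like Ugt2b1, a glucuronosyltransferase (r = 0.91, changes of 0.18, 0.73 and 0.55). Hp was most like Mrpl50, of the mitochondrial ribosome (r = 0.976, changes of -0.25, -0.15 and -0.17). Without PCN the 4 values of r, in the same order, were 0.995, 0.994, 0.911 and 0.987. The 4 genes were picked out of all tested probe sets for this likeness.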

How the data were processed

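Biotin-labelled cRNA from 35 cultures was hybridized to Affymetrix rat expression arrays, per the labels' protocols. The authors deposited 1 table of scores for 31099 probe sets (57 of them controls). How the authors made these scores, and the base of their log-like scale, are not given in the sources used here. Probe sets were named from the platform annotation, which gives 1 gene for 20826, several for 436 and none for 9780. Promoters came from RefSeq (GRCr8).

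Arrays were quantile-normalized. Probe sets above the array median on at least 2 of 35 arrays (17971) were tested with limma 3.58.1 (R 4.3.3, lmFit and eBayes, two-sided), with 1 mean per group and no covariate. Contrasts were 11 against DMSO, 9 triazole pairs, 3 dose slopes and 3 code differences, the last from a model with group and code. P values were adjusted by Benjamini and Hochberg over all tested probe sets within a contrast, and calls made below 0.05. The fit was tested on simulated data. Deviations from the group means correlated between same-code arrays of the groups compared at r of 0.299 to 0.938 (median 0.612 over all same-code pairs, against -0.347 for different codes), so the code was taken to pair the arrays and blocked values are given where they change a call. The number of arrays limits the precision. Alternatives were the deposited values, median and MAD scaling, the block, no filter, 1 probe set per gene, only the groups compared, and leaving out arrays.

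The members and lists were chosen with earlier results of these data known. All 10 members were named. Genes of the other positive, negative and cytokine signalling lists were named if called against DMSO at 100 uM, at most the 4 of largest change per list and comparison. Cd68 and the other macrophage markers were named after their values were seen. For each member called against DMSO, the most similar other gene was named.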

Additional observations from a re-analysis of the deposited data

How the results depend on the processing

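Counts of members called moved with the processing. As reported they were 3, 1 and 1 for propiconazole, myclobutanil and triadimefon at 100 uM, 0 over the other 8 comparisons with DMSO, 1 over the triazole pairs, 3 over the slopes and 18 over the code differences (11.3%, 0.785%, 1.55%, 0.00765%, 0.117%, 2.73% and 45.3% of all probe sets over the same comparisons). On the values as deposited, and equally after median and MAD scaling, the first 3 counts were 1, 0 and 0, with 0 for the pairs and 1 for the slopes (5.36%, 0.0779%, 0.2%, 0.0272% and 1.06% of all as deposited, and 4.79%, 0.039%, 0.2%, 0.0253% and 0.953% after scaling). The replicate block gave 5, 3 and 4, with 3 over the other 8 comparisons, 5 over the pairs and 7 over the slopes (27.1%, 7.97%, 9.96%, 0.347%, 1.23% and 10% of all). Deposited values with the block, added after seeing the data, gave 2, 0 and 1, with 4 over the pairs (15%, 1.42%, 2.87% and 0.221% of all). Without the filter on dim probe sets the counts for myclobutanil, triadimefon and the pairs were 0, 0 and 0 (0.332%, 0.722% and 0.0594% of all), and with only the groups compared they were 0, 0 and 0, with 1 for the slopes (0.0111%, 0.1%, 0.00124% and 0.944% of all). With 1 array or code left out the count ran between 1 and 4 for propiconazole and was 0 for myclobutanil and 0 for triadimefon in every case, between 0 and 4 for the pairs and between 0 and 4 for the slopes. Leaving out Rs293, Rs304 or the DMSO array of Rs293 gave 1 for propiconazole, and the slopes had 0 without Rs293 and 0 without Rs304. Without the propiconazole 30 uM array of Rs293, also added after seeing the data, the other 8 comparisons had 1 call. The code differences stayed between 14 and 18. Shares of all probe sets are not given for the fits with an array or code left out. Their counts therefore say nothing particular to the members. Serpina3c with propiconazole kept its direction in 16 of 16 alternatives and its call in 13, Hp in 16 and 12, and Serpina3l in 16 and 5. Crp with myclobutanil kept its direction in 16 and its call in 2. Hp with triadimefon reversed in 3 alternatives, to 0.03 on the deposited values, 0.13 after median and MAD scaling and 0.03 on the deposited values with the block, and was called in 2. The causes were not tested.

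The unstated base of the scale allows no folds. With 3 arrays per group, overlapping DMSO values limit every pooled comparison of members that differ between codes, and what the code stands for cannot be told apart from anything that goes with it. Ranks near the top of the array leave Orm1, Hp and, in Rs256, A2m little room on the normalized scale.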
